A study of Mus musculus with 4 samples.

Results

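The miR-34 and miR-449 family is a group of related microRNAs (miRNAs), short RNAs cut from a hairpin precursor, and 6 mouse hairpins belong to it: mmu-mir-34a, mmu-mir-34b, mmu-mir-34c, mmu-mir-449a, mmu-mir-449b and mmu-mir-449c, called miR-34a and so on below. Members were taken by name. A deposited sequence was counted to the family when it was at least 18 nt long and its annotation named these hairpins and no other. That gave 57 distinct sequences out of 2783 miRNA-labelled sequences of that length, and 120510 reads over 4 libraries. All 57 carried a single hairpin name, so no read was shared between members. They fell on 4 of the 6 hairpins: 24 on miR-34b, 14 on miR-34c, 12 on miR-34a and 7 on miR-449a.

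The libraries hold small RNA from mice of the C57BL strain, 2 from controls (Ctrl) that were left alone apart from feeding and cage cleaning, and 2 from the Mdd group. Mdd mice received a random daily stressor such as cage tilt, damp bedding, noise, strobe light, tube restraint, isolation or a disturbed day-night cycle, a treatment used to induce depressive-like behaviour. The study's question was which small RNAs of sperm change with it. The extraction protocol names sperm, while the tissue field names testis. The labels used here do not say how many animals went into a library, their age, the length of the treatment or whether replicates were separate animals. The p-values therefore reflect no more than the spread among 4 samples, and that spread may be technical.

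miRNAs act by pairing with target messenger RNAs, mainly through the seed, bases 2 to 8 of the mature strand. Each hairpin can give a strand from its 5′ arm (5p) and one from its 3′ arm (3p), and the 5p strands of this family share a seed. miR-34b, miR-34c and the miR-449 members are known from meiotic and later male germ cells and from cells with motile cilia, and mice that lack both clusters are known to be infertile. miR-34a is made more widely and is activated by the p53 tumour suppressor. In GRCm38, miR-34a lies on chromosome 4 from 150068454 to 150068555 on the plus strand, within an exon of the transcript Gm37795. miR-34c and miR-34b lie close together on the minus strand of chromosome 9, from 51103034 to 51103110 and from 51103562 to 51103645, in an intron of Btg4, which is read from the other strand. miR-449c, miR-449b and miR-449a follow each other on chromosome 13, from 113035983 to 113036091, from 113037419 to 113037498 and from 113037534 to 113037624, within introns of Cdc20b and on its strand.

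The mature strands that carried the reads are shown first, as given by RefSeq for GRCm38.p6, with the seed in capitals, because the family splits by seed.
mmu-miR-34a-5p: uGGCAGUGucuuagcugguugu
mmu-miR-34b-5p: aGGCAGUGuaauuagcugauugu
mmu-miR-449a-5p: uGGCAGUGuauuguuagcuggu
mmu-miR-34b-3p: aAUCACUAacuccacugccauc
mmu-miR-34c-3p: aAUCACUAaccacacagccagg
The 5p strands of miR-34a, miR-34b and miR-449a share the seed GGCAGUG. The most read 5p sequence of miR-34c in the files, aGGCAGTGtagttagctgattgc, has it too (reads are written with T). The 3p strands of miR-34b and miR-34c share a different seed, AUCACUA, and are identical over their first 10 nt and at 17 of 22 positions. miR-449c-5p, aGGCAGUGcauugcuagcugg, has the 5p seed but had no read.

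Reads of 18 nt or longer numbered 9706895 in Ctrl replicate 1, 16763277 in Ctrl replicate 2, 23748630 in Mdd replicate 1 and 23806805 in Mdd replicate 2. Values below keep this order. Reads of all deposited lengths numbered 12845403, 22948488, 24031479 and 24112532, so reads under 18 nt were a larger part of both control libraries. The part of this difference in the starts, ends, lengths and tails compared below was not tested. Reads with a miRNA label numbered 71902, 263748, 198947 and 94011, of which 16391, 29460, 53311 and 21348 were of the family. Levels are given as CPM, reads per 1000000 miRNA reads of the same library, unless another base is named. Marker miRNAs of other cell types were present in every library. Of 10 epithelial markers 10 had reads, with summed levels of 12058 and 21073 CPM in controls against 12255 and 23402 CPM in Mdd. Of 7 striated muscle markers 6 had reads (miR-208a had none), with 4256 and 67546 CPM against 1508 and 1649 CPM. All 7 blood markers had reads, with 46967 and 6548 CPM against 59920 and 50335 CPM, as had all 3 smooth muscle and vessel markers, with 47579 and 77919 CPM against 44776 and 57791 CPM. Of 17 X-linked germ cell miRNAs 16 had reads (miR-465d had none), with 112848 and 61551 CPM against 120731 and 71470 CPM. Ctrl replicate 2 thus had the most muscle and the least blood and X-linked germ cell signal of the 4 libraries. For the X-linked list Mdd replicate 2 was next lowest. miR-449a, also known from germ cells, went the other way, with its highest level in Ctrl replicate 2 (47936 CPM). In libraries of mixed cells, fewer germ cells and less of a miRNA per cell cannot be told apart. The part of these differences in the family's levels was not tested.

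The family made up 22.8% and 11.2% of miRNA reads in the control libraries and 26.8% and 22.7% in the Mdd libraries (16.98% ± 8.22 against 24.8% ± 2.89, SD, n = 2 each). Ctrl replicate 2 was low, Ctrl replicate 1 lay between the Mdd libraries, and the groups overlapped. The difference of 7.77 percentage points had an exact two-sided permutation p of 0.667, where 2 against 2 samples cannot go below 0.33. Without Ctrl replicate 2 it was 1.96 points and without Ctrl replicate 1 it was 13.6 points. As a share of all reads of 18 nt or longer the family stood at 0.169%, 0.176%, 0.224% and 0.0897%, so on that base the lowest library was Mdd replicate 2.

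miR-34b had the highest mean level of the 389 miRNA labels with reads, 144506 CPM, ahead of miR-143, a smooth muscle miRNA, at 50638 CPM and the broadly expressed miR-191 at 43280 CPM. It had rank 1 in 3 libraries and rank 3 in Ctrl replicate 2, behind miR-143 (63011 CPM) and miR-449a. It stood at 177672 and 47056 CPM in the Ctrl libraries and at 205396 and 147898 CPM in Mdd (12775 and 12411 against 40863 and 13904 reads). Per miRNA read Ctrl replicate 2 was far below the other 3 libraries, and Ctrl replicate 1 lay between the Mdd libraries. Against all reads of 18 nt or longer, miR-34b stood at 1316 and 740 CPM of those reads in controls and at 1721 and 584 in Mdd. The lowest library on that base was Mdd replicate 2. With edgeR's quasi-likelihood test the log2 fold change of Mdd over Ctrl was 0.78 (SE 1.05, adjusted p = 0.992). It was 0.14 without Ctrl replicate 2 and 1.82 without Ctrl replicate 1.

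miR-449a had rank 4 among all labels. It stood at 34770 and 47936 CPM in the Ctrl libraries and at 43755 and 32837 CPM in Mdd. Per miRNA read this was the narrowest span of the 4 hairpins, 1.46-fold from lowest to highest library. The groups overlapped and the log2 fold change was -0.08 (SE 0.78, adjusted p = 0.992 with edgeR), a value whose sign changed with the scaling. In Ctrl replicate 2 miR-449a was level with miR-34b (47936 against 47056 CPM), whereas in the other 3 libraries miR-34b was above it.

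miR-34c stood at 11168 and 8137 CPM in the Ctrl libraries and at 8088 and 30730 CPM in Mdd. One library, Mdd replicate 2, was high and the other 3 lay close together. The log2 fold change was 1.03 (SE 0.77, adjusted p = 0.952 with edgeR) and -0.05 without Mdd replicate 2. As described below, the excess in that library lay in reads with one 3′ ending.

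miR-34a was the least abundant of the 4 hairpins by mean level, at 9816 CPM. It stood at 4353 and 8569 CPM in the Ctrl libraries and at 10726 and 15615 CPM in Mdd, so every Mdd library was above every control library. The same held for 39 of the 236 tested miRNA labels (16.5%), and 38.1% did not overlap in one direction or the other. The log2 fold change was 1.02 (SE 0.70, adjusted p = 0.952 with edgeR), 0.50 without Ctrl replicate 1 and 1.72 without Ctrl replicate 2. Counted against all reads of 18 nt or longer, miR-34a stood at 32.2 and 134.8 CPM of those reads in controls against 89.9 and 61.7 in Mdd, and the groups overlapped. miR-34c was above miR-34a in Ctrl replicate 1 and Mdd replicate 2 and below it in the other libraries, so the order of these hairpins was not fixed. Without reads of the 3′ ending described below, miR-34c was below miR-34a in Mdd replicate 2 too (6254 against 16394 CPM of the remaining miRNA reads).

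miR-449b and miR-449c had 0 reads in every library, and no deposited sequence of any length lay within either hairpin. A count of 0 allows up to 3 reads, or 41.7, 11.4, 15.1 and 31.9 CPM in the 4 libraries. These limits cover counting error only, since amplified reads are not independent molecules. The RefSeq miR-449c-5p strand printed above ends in UGG, read as TGG, an ending rare in every library as described below. The part of that ending in the count for miR-449c was not tested.

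**Figure D1:**
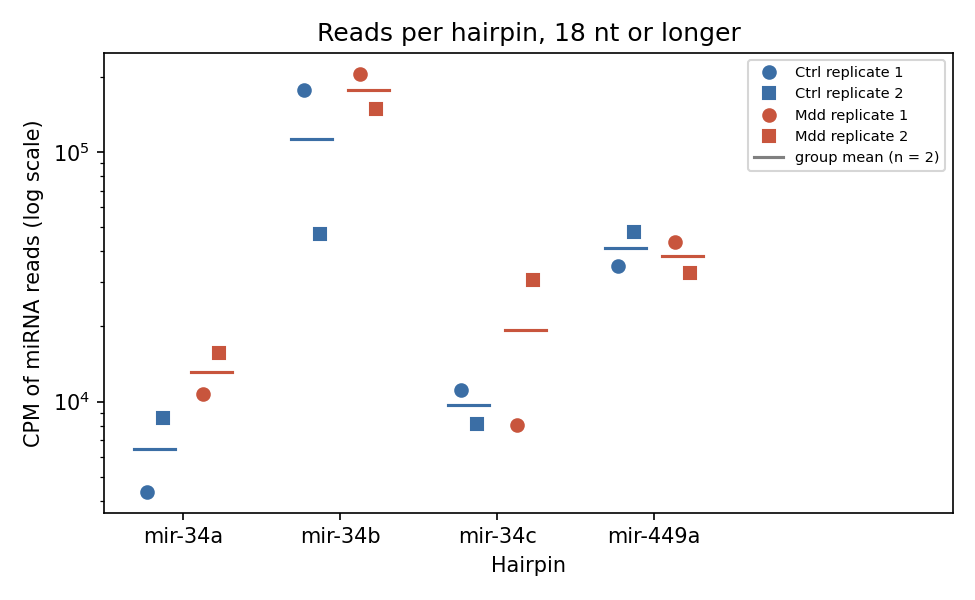
Level of each hairpin with reads in each library, in CPM of miRNA reads on a log axis, with bars at the group means (n = 2). miR-34b is lowest in Ctrl replicate 2, miR-34c is high in Mdd replicate 2 alone, and only for miR-34a do the groups not overlap.

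With edgeR 0 of the 4 family hairpins with reads passed an adjusted p of 0.05, over a background of 0 of 236 labels (0%), and 0 of 4 had an unadjusted p under 0.05 (background 4.66%). DESeq2 called 0 of 4, over 7 of 236 labels (2.97%). Of the 4 fold changes 3 were positive, with a median of 0.90 on the log2 scale, against 113 of 236 positive (47.9%) and a median of -0.04 over all labels. When each library was scaled by all its reads of 18 nt or longer, the median log2 fold change over all labels was -1.10 in place of -0.04. With that scaling miR-34a stood at -0.14, miR-34c at -0.16, miR-34b at 0.16 and miR-449a at -1.03, each above the median label.

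Sorted by seed, the family fell into pools that varied differently between libraries. Reads with the 5p seed made up 4.001% and 5.73% of miRNA reads in controls and 5.56% and 4.86% in Mdd, a span of 1.43-fold from lowest to highest library. Reads with the 3p seed of miR-34b and miR-34c made up 15.5% and 4.67% against 18.0% and 15.1%, a span of 3.85-fold. Within the family, the 5p seed was carried by 17.6% and 51.3% of control reads and by 20.8% and 21.4% of Mdd reads. Ctrl replicate 2 was thus the library in which the 5p seed outweighed the others, and the groups overlapped (exact permutation p = 1.0). miR-449a gave most of the 5p pool in each library, at 34770 of 40013, 47936 of 57327, 43755 of 55648 and 32837 of 48622 CPM, followed by miR-34a.

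**Figure D2:**
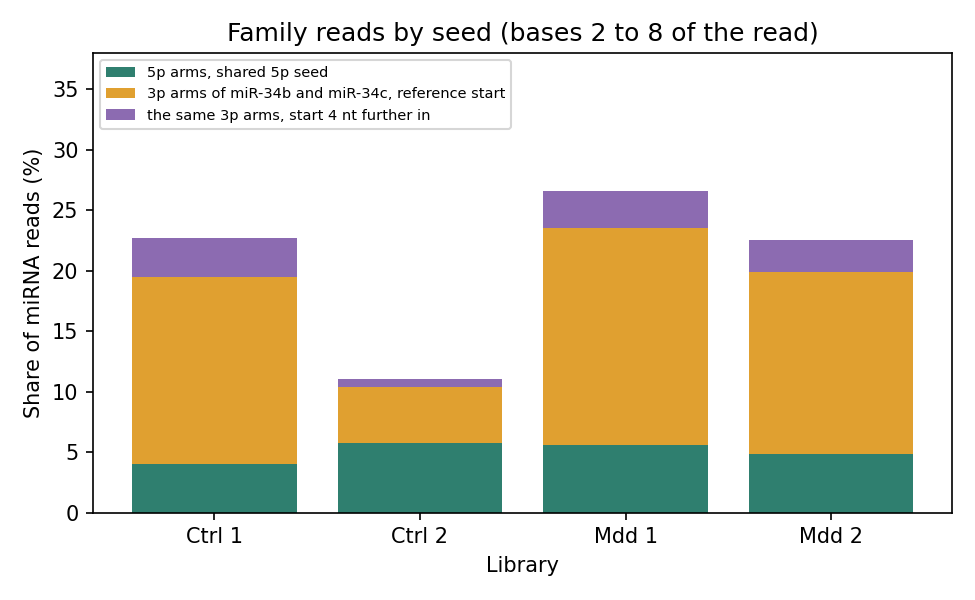
Share of miRNA reads that carried each family seed, stacked per library, in percent. The 5p pool at the bottom stays between 4.001% and 5.73%, while the 3p pool above it drops to 4.67% in Ctrl replicate 2. As a share of all reads of 18 nt or longer this contrast did not hold.

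The arms were used unequally. miR-34b was read almost entirely from its 3p arm, at 99.8% and 98.0% in controls against 99.8% and 99.9% in Mdd. Its 5p arm had 20 and 249 reads against 78 and 20, or 278 and 944 CPM against 392 and 213 CPM, with Ctrl replicate 2 highest. The log2 fold change of the 5p arm was -0.88 (SE 1.43) and that of the 3p arm 0.83 (SE 1.21), both with an adjusted p of 0.996 over 270 arms with edgeR. Without Ctrl replicate 2 they were 0.30 and 0.16. In Ctrl replicate 2 the arms of miR-34b therefore departed from the other libraries in opposite directions per miRNA read. Against all reads of 18 nt or longer, the 5p arm was again highest there. The 3p arm was lowest in Mdd replicate 2 on that base, with 583 CPM of those reads against 726 in Ctrl replicate 2. miR-34c was also read mostly from the 3p arm, at 93.3% and 91.0% against 90.0% and 98.2%. Its 5p arm stood at 751 and 732 CPM against 809 and 542 CPM. miR-34a and miR-449a gave 5p reads only, 100% in each library. Of the 6 family arms 0 passed with edgeR (background 0% of 270) and 0 had an unadjusted p under 0.05 (background 7.78%), and DESeq2 called 0 (background 2.22%). Of the 6 fold changes 5 were positive (background 53.3%), though barely so for miR-34c-5p (0.02) and miR-449a-5p (0.04). miR-34a-5p alone was higher in both Mdd libraries than in both controls (background 15.2%).

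Few sequences carried the family. The 10 most read held 95.6% of its reads, and the 21 sequences found in all 4 libraries held 98.97%. The most read sequence of each hairpin was identical to the RefSeq strand printed above: miR-34b-3p with 36983 reads over the 4 libraries, miR-449a-5p with 25267, miR-34a-5p with 4998 and miR-34c-3p with 3820. Of the other 6 among the 10, 4 were forms of miR-34b-3p. The form without the last base had 28027 reads, the forms that lack the first 4 bases had 7307 and 4946, and the form with 1 more base at the end had 935. A longer miR-34c-3p and a shorter miR-449a-5p, described with the 3′ ends, had 2153 and 760 reads.

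These shortened starts are shown because they change the seed. With the seed of the read in capitals, the full and shortened forms of the 3p arms were as follows.
miR-34b-3p, reference start: aATCACTAactccactgccatc
miR-34b-3p, start 4 nt further in: aCTAACTCcactgccatc
miR-34b-3p, start 4 nt further in, longer end: aCTAACTCcactgccatca
miR-34c-3p, reference start: aATCACTAaccacacagccagg
miR-34c-3p, start 4 nt further in: aCTAACCAcacagccaggt
The shortened miR-34b start made up 17.6% and 13.1% of 3p reads in controls and 14.9% and 16.95% in Mdd. Shorter reads were not counted. The groups overlapped, with a difference of 0.573 percentage points (exact permutation p = 1.0). The same cut occurred in miR-34c-3p, at 6.14% and 3.99% against 4.49% and 3.74%, in each library below the miR-34b value. Starts 1 base upstream were rare in miR-34b-3p (0.494% to 0.756%) and absent from the counted miR-34c-3p reads. In the 5p arms of miR-34a and miR-449a the reference start accounted for 98.8% and 99.9% of reads, averaged over libraries. Among 56 miRNA arms with a RefSeq mature strand and at least 100 reads in every library, miR-34b-3p had rank 2 and miR-34c-3p rank 3 by the share of reads that start 4 nt in (15.7% and 4.59% averaged over libraries, median 0%, highest 39.8%). This ranking is a description of these libraries.

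Reads of miR-34b accordingly fell into a main peak and a shorter one. Those of 22 nt made up 49.7%, 46.2%, 46.6% and 45.1% of its reads and those of 21 nt 29.98%, 36.8%, 36.2% and 35.2%. Reads of 18 nt made up 10.7%, 8.29%, 8.81% and 9.78%. The 3′ end of miR-34b-3p lay at the reference base in 60.1% and 54.9% of control and 55.0% and 54.8% of Mdd reads and 1 base short of it in 30.5% and 38.4% against 36.7% and 35.7%. Ctrl replicate 1 stood slightly apart in both and Ctrl replicate 2 lay beside the Mdd libraries. miR-449a-5p was the most uniform strand, with 95.3% and 94.4% of control and 94.2% and 91.1% of Mdd reads at the reference end. The groups did not overlap for this share (difference of -2.19 points, exact permutation p = 0.33, the smallest possible). Of the 42 shares and mean lengths compared, this one included, 10 did not overlap between groups, each with an adjusted p of 1.0. In miR-34a-5p the reference end held 88.8% and 76.3% against 88.2% and 80.5%, with overlap, and the end 3 bases short 0.319% and 1.55% against 3.47% and 4.905%, without.

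**Figure D3:**
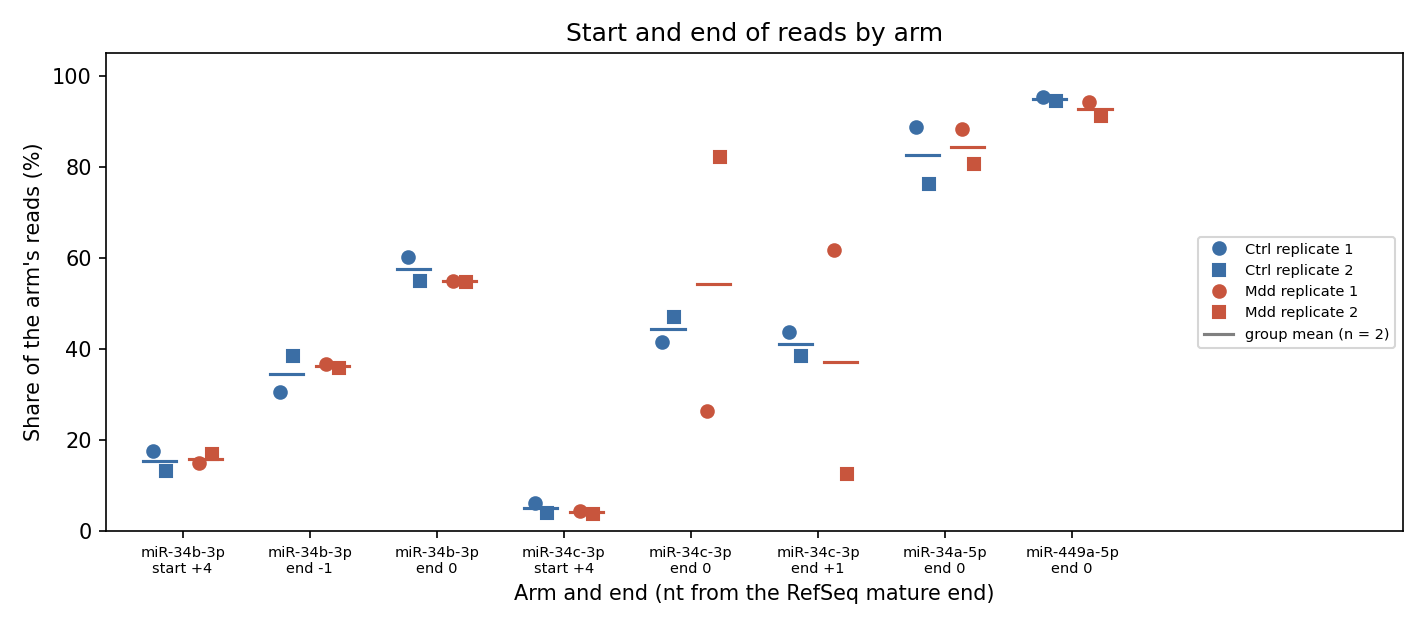
Share of each arm's reads, in percent, that start or end at the stated distance in nt from the RefSeq mature strand, per library with bars at the group means (n = 2). miR-34b-3p and miR-449a-5p vary little, while the ends of miR-34c-3p spread from 26.3% to 82.1% between the Mdd libraries.

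The reference end of miR-34c-3p varied more between libraries than that of miR-34a-5p, miR-34b-3p or miR-449a-5p, a description with no test. The reference end made up 41.5% and 47.1% of its reads in controls and 26.3% and 82.1% in Mdd, and the end 1 base further 43.8% and 38.5% against 61.7% and 12.7%. The Mdd libraries lay on either side of both controls. These ends are shown with the last 3 bases in capitals.
miR-34c-3p, reference end: aatcactaaccacacagccAGG
miR-34c-3p, end 1 base further: aatcactaaccacacagccaGGT
The first form had 298 and 908 reads in the Ctrl libraries and 378 and 2236 in the Mdd libraries, or 4145 and 3443 CPM against 1900 and 23784 CPM. The second had 295 and 684 against 830 and 344 reads, or 4103 and 2593 CPM against 4172 and 3659 CPM. Mdd replicate 2 was thus high in the first form and between the other libraries in the second.

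The ending AGG was frequent in that library as a whole. It closed 1.52%, 2.96% and 1.70% of all reads of 18 nt or longer in the other libraries and 17.4% in Mdd replicate 2. Among miRNA reads outside the family the shares were 0.490%, 1.11% and 0.170% against 2.94%. Of miR-34c reads 38.7%, 42.8% and 23.7% ended so, against 80.6% in Mdd replicate 2. No miRNA-labelled read of miR-34a, miR-34b or miR-449a did, which is no observed contrast. Counted reads match their hairpin to the last base, and of the strands printed above only miR-34c-3p ends in AGG. Reads of the family with an added AGG lie outside the label and are given with the tails. miR-34c reads with any other end stood at 6843 and 4652 CPM in the Ctrl libraries and at 6172 and 5957 CPM in Mdd, with Mdd replicate 2 between the other values. When reads ending in AGG were left out of every library, a choice made after the values were seen, the log2 fold change of miR-34c was 0.19 in place of 1.03. The part of this ending in the level of miR-34c in sperm was not tested.

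**Figure D4:**
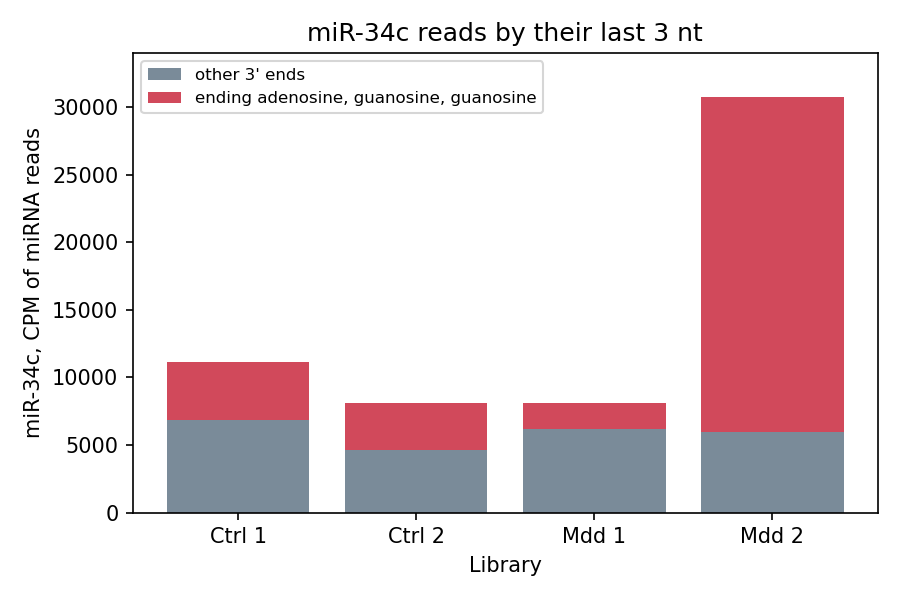
Level of miR-34c in each library, in CPM of miRNA reads, split by whether the read ends in adenosine and 2 guanosines. The other ends stay between 4652 and 6843 CPM, and the reads with this ending reach 24774 CPM in Mdd replicate 2.

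A different ending was missing. None of the 57 family sequences ended in TGG, and over all reads of 18 nt or longer TGG closed only 0.0377% to 0.102% of reads. The miR-449a-5p form 1 base shorter than the reference would end in TGG and had 0 reads in every library. A form 4 bases shorter, which is that form without TGG, was the second most read miR-449a sequence. It is shown with its last 3 bases in capitals.
miR-449a-5p, end 4 bases short: tggcagtgtattgttAGC
It had 25 and 311 reads in the Ctrl libraries and 243 and 181 in the Mdd libraries, or 1.0% and 2.46% of miR-449a-5p reads against 2.79% and 5.86%. The Mdd libraries were above both controls. The part of the missing ending in these shares was not tested.

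Each of the 57 sequences counted above matched its hairpin to the last base. A further 125 deposited sequences matched a family hairpin over at least 18 nt and then left it for 1 to 3 bases, a 3′ tail. Adding uridine to a miRNA's 3′ end is a known modification by terminal uridylyltransferases and is read as T. These sequences held 16213 reads. None had a genome match in the files, 69 were labelled piRNA (13907 reads) and 56 had no label. The most read are shown with the tail in capitals.
miR-34b-3p, 1 base short with tail: aatcactaactccactgccatT
miR-34b-3p, reference end with tail: aatcactaactccactgccatcT
miR-34b-3p, start 4 nt further in with tail: actaactccactgccatcT
miR-34c-3p, 1 base short with tail: aatcactaaccacacagccagT
miR-34c-3p, 2 bases short with tail: aatcactaaccacacagccaAGG
The first had 650 and 875 reads in the Ctrl libraries and 2864 and 997 in the Mdd libraries, the second 586 and 469 against 2060 and 537.

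Tails of T only were carried by 11.0% and 11.8% of miR-34b-3p reads in controls and 13.2% and 12.02% in Mdd, with tailed reads included in the total. The values were close together, although the Mdd libraries were above both controls. In miR-34c-3p they made up 20.9% and 14.5% against 30.5% and 8.56%, with the Mdd libraries again on either side of the controls. Without reads ending in AGG, Mdd replicate 2 no longer stood low (30.4% and 26.2% against 38.9% and 39.9%). The 5p strands had few such tails: 0% and 3.46% against 0.0454% and 2.37% in miR-34a, and 0.672% and 0.204% against 0.0454% and 0% in miR-449a. All other miRNA reads placed on a hairpin had 9.04% and 8.76% against 10.3% and 9.07%. Among the 56 arms, miR-34c-3p had rank 11 and miR-34b-3p rank 14 by this share, miR-34a-5p rank 41 and miR-449a-5p rank 45. miR-34c-5p, with few reads, had 53.0% and 37.7% against 23.3% and 26.4%. Within the family, then, counted T tails were common on both strands of miR-34c and on miR-34b-3p and rare on the abundant 5p strands. An added T that equals the next hairpin base was not counted as a tail. That base is T after the reference ends of miR-34a-5p, miR-449a-5p and miR-34c-3p, and A after that of miR-34b-3p. Reads ending 1 base past the reference made up 10.9% and 15.8% against 8.29% and 9.47% of miR-34a-5p. The part of this limit in the tail shares and ranks was not tested. The sequence with the AGG tail, last in the lines above, had 3 and 250 reads in the Ctrl libraries and 125 and 1074 in the Mdd libraries, again most in Mdd replicate 2. Reads with an AGG tail were fewer on miR-34b (0 and 5 against 15 and 46) and miR-449a (0 and 5 against 2 and 26), also with most in Mdd replicate 2, and miR-34a had 0 in each library.

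**Figure D5:**
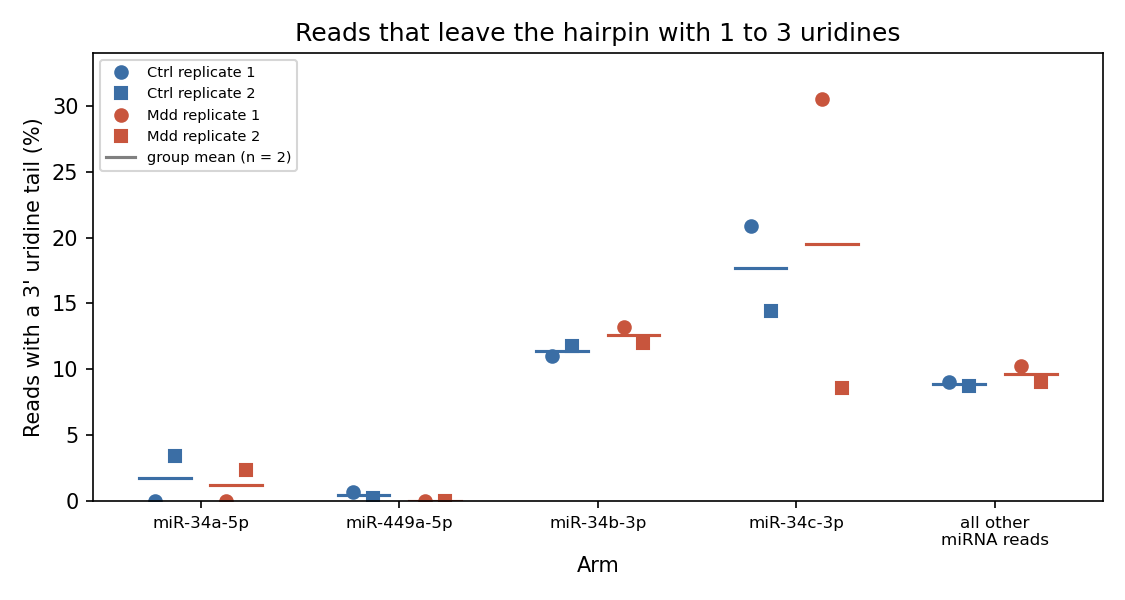
Share of reads with a 3′ tail of uridine only, in percent of tailed and untailed reads, per library with bars at the group means (n = 2). Added uridines that equal the next hairpin base are not counted as tails. miR-34b-3p lies between 11.0% and 13.2%, miR-34c-3p spreads from 8.56% to 30.5%, and miR-34a-5p and miR-449a-5p stay at or below 3.46%.

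Of the 57 family sequences 33 passed the filter on low counts in the test of single sequences. With edgeR 0 of 33 passed (background 0% of 754 sequences) and 0 had an unadjusted p under 0.05 (background 8.89%), and DESeq2 called 0 (background 2.06%). The lowest p, 0.106 (adjusted p = 0.730 with edgeR), belonged to the miR-34c-3p form with the reference end, which carries the AGG ending. Of the 33 fold changes 25 were positive (background 49.9%). Of the 33, 5 were higher (background 14.5%) and 3 lower (background 23.2%) in both Mdd libraries than in both controls, where 37.7% of all tested sequences did not overlap in one direction or the other. The full-length miR-34a-5p was among the higher ones, at 3866 and 6374 CPM in controls against 9450 and 12328 CPM in Mdd. Its form with 1 more base did not follow, at 473 and 1308 CPM against 890 and 1362 CPM.

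The miRNAs whose pattern over the 4 libraries was nearest to that of the summed family were miR-375, let-7b, miR-470, miR-423 and miR-3470a, out of 96 labels with a mean of at least 1000 CPM. Nearness was the root mean square distance of log2 CPM centred over the libraries, and it ranged from 0.174 for miR-375 to 0.206 for miR-3470a. miR-375, for example, stood at 12183 and 5319 CPM in the Ctrl libraries and at 12471 and 8669 CPM in Mdd, lowest in Ctrl replicate 2 as the summed family was. These labels are the nearest by choice. Single members did not all share that pattern: miR-449a was highest in Ctrl replicate 2 and miR-34a was lowest in Ctrl replicate 1. By the same measure the 6 pairs of single members lay between 0.706 for miR-34a and miR-449a and 1.08 for miR-34a and miR-34b.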

How the data were processed

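Small RNA of 18 to 40 nt was sequenced, per the labels' protocols, although the deposited reads start at 15 nt. The deposited tables give counts, raw reads per distinct sequence, 1 table a library, joined here by sequence. The submitters' processing notes name mm9 and DESeq2. The aligner is not given in the sources used here. Members and lists were chosen with earlier results of these data known. Reads of at least 18 nt were summed per hairpin label with copy numbers removed, and 5p and 3p arms were set by placing reads on RefSeq hairpins (GRCm38.p6, 298 of 389 labels matched). Positions come from GRCm38 annotation. A tail was 1 to 3 nt beyond at least 18 nt that match a hairpin.

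Groups were compared with edgeR 4.0.16 in R 4.3.3 (TMM, filterByExpr, quasi-likelihood test, Benjamini-Hochberg adjustment over all miRNA features, threshold 0.05). The code was also run on simulated data with a set spread and planted changes larger than those fitted for the family. That run does not show what size of change these libraries could reveal. DESeq2 1.42.0, other size factors, length and filter settings, annotation as deposited, a replicate block and leaving out each library were alternatives. The SE of a fold change was not fitted but derived, as its absolute value over the square root of edgeR's F statistic. Shares were compared by exact two-sided permutation tests over samples. For family, hairpin, arm, start, end and seed shares the 95% Wilson interval was at most 3.54 percentage points either side, for miR-34c-3p. It covers counting error only. Tail shares were given no interval, and those of miR-34c-5p rest on few reads. Named were the members, the 10 most read sequences, the most read and reference strands of each hairpin, the 3 most abundant labels and the 5 nearest in pattern, and the sequence of lowest p, chosen after its value was seen, as were the tailed and 3′ end forms. Same-numbered libraries share only a number.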

Additional observations from a re-analysis of the deposited data

Results flagged for a closer look

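Reads outside the miRNA label, the 3′ tailed forms of the family, were more frequent in both stressed libraries than in either control. They made up 10.9% and 8.61% of family reads in controls and 12.5% and 15.2% in Mdd replicates 1 and 2 (exact two-sided permutation p = 0.33, the smallest that 2 against 2 samples can give). Without reads ending in AGG, the shares were 11.0% and 8.10% against 12.4% and 12.2%. All other miRNA reads placed on a hairpin likewise did not overlap between groups, with 15.05% and 13.6% against 16.7% and 17.7% tailed (exact permutation p = 0.33), and whether the family differed from them was not tested. Within the family, AGG tails had most reads on miR-34c, with 3 and 250 in Ctrl libraries against 125 and 1092 in Mdd libraries.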

How the results depend on the processing

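No family hairpin, arm or single sequence passed the threshold under any alternative that was run. Over all miRNA features the number of calls, 0 in the reported fits, reached 16 hairpins and 13 arms without Mdd replicate 2 and 14 sequences with DESeq2. Directions were less stable. With all reads of 18 nt or longer as library size, miR-34a stood at -0.14, miR-34c at -0.16 and miR-34c-3p at -0.10 (log2), and the family share changed by -0.0152 percentage points. The fold change of miR-449a was 0.0652 with RLE size factors and with DESeq2, 0.0484 with no filter and 0.13 with all lengths. Leaving out 1 library at a time, where the lone sample left in a group is assumed to vary like the other group, gave log2 ranges of 0.50 to 1.72 for miR-34a, 0.14 to 1.82 for miR-34b, -0.0541 to 1.65 for miR-34c, -0.42 to 0.29 for miR-449a, 0.16 to 2.01 for miR-34b-3p, -1.72 to 0.30 for miR-34b-5p and -0.0433 to 1.55 for miR-34c-3p. In percentage points the ranges were 1.96 to 13.6 for the family share, -0.011 to 1.84 and -2.15 to 6.09 for the 3p arm shares of miR-34b and miR-34c, -1.67 to 2.81 for the shifted miR-34b start, -5.24 to -0.020 and -18.0 to 37.8 for the reference ends of miR-34b-3p and miR-34c-3p, -3.75 to -0.641 for that of miR-449a-5p and -30.2 to 3.54 for the 5p seed. With all lengths the shifted start changed by -0.220 points. Counting distinct sequences of at least 10 reads gave 1.36 and -7.62 points for those 2 ends and 7.05 points for the 5p seed. The causes were not tested. With the replicate number as a block, for numbers whose deviations correlated at r = -0.03 over 236 labels, the values were 1.13, 0.98, 0.77 and -0.06 for miR-34a, miR-34b, miR-34c and miR-449a, with 0 family calls and 4 calls among all labels in place of 0. Reads a hairpin and library ranged from 313 to 40863, and the standard error was largest for miR-34b (1.05), the hairpin with most reads.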
